A study of Mus musculus with 6 samples.

Results

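Spp1, Efna3, Tpbg and Art1 code for a secreted matrix protein and for proteins held on the outer face of the cell membrane. They were taken by their gene names from a deposited table of mouse testis RNA and are 4 of its 196 genes. All 4 had a higher mean level in the libraries of group T than in those of group CON: Spp1 by 3.65-fold, Art1 by 3.42-fold, Efna3 by 2.49-fold and Tpbg by 2.19-fold, as ratios of mean TPM (n = 3 libraries per group). TPM is a level scaled for transcript length and for the total of the library, so that levels of different genes can be set side by side. The 3 T libraries lay above the 3 CON libraries without overlap for Spp1, Efna3 and Art1. For Tpbg the groups overlapped. Of all 196 genes, 67 had a higher mean in T, and 40 stood higher in T without overlap. The members were chosen with earlier results of these data known, so that their common direction is no independent result.

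The RNA came from testes of male C57BL/6 mice bought at 6 weeks of age, of which 3 per group were sequenced out of 5. By the study's methods, one group was given nano-antimony trioxide (Nano-Sb2O3) by nasal instillation at 7.5 mg/kg/d for 16 days and the other was given normal saline. The labels conflict on which group is which. The libraries named con_1 to con_3 carry titles of high-dose mice and those named n1_4, n3_3 and n3_6 carry titles of control mice, while the table's own mean columns average the first 3 as CON and the other 3 as T, for 196 of 196 genes. The column groups CON and T are used here, with CON 1 to CON 3 for con_1 to con_3 and T 1 to T 3 for n1_4, n3_3 and n3_6. Read by the library names, T is the exposed group. If the titles are right, every direction given here inverts with respect to exposure.

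The table held only genes listed for a difference between these same libraries. In its own columns every gene had an unadjusted p under 0.05 and a log2 fold change of at least 1 in either direction, whereas the methods state the threshold for the adjusted p and not all genes pass it there. Summed over the table, the libraries held between 880 and 1776 TPM. The reads behind a value are unknown, so no counting error is given. None of the marker genes fixed for the cells of the testis is in the table (12 Sertoli, 9 Leydig, 6 peritubular myoid and 14 germ cell markers), so the tissue label could not be checked against it. In whole-testis RNA, fewer cells of a type and less RNA per cell cannot be told apart.

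Osteopontin, the product of Spp1, is a secreted phosphoprotein of bone and other matrices. It binds integrins through an RGD (arginine-glycine-aspartate) motif and CD44 on the cell surface, and it is made by macrophages, osteoblasts and many epithelia. Ephrin-A3 (Efna3) is a membrane-anchored ligand for Eph receptor tyrosine kinases on neighbouring cells, and ephrins and Eph receptors are known for repulsive guidance of axons and for the sorting of cells at tissue boundaries. ART1 transfers ADP-ribose from NAD+ to arginine residues of surface proteins, integrins among them, and is best known from skeletal muscle. TPBG, also called the 5T4 oncofetal antigen or WAIF1, is a leucine-rich repeat glycoprotein that spans the membrane and inhibits Wnt/β-catenin signalling. Ephrin-A3 and ART1 are both held in the membrane by a glycosylphosphatidylinositol (GPI) anchor.

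The codons of the RGD motif lie in the coding sequence of Spp1. The stretch around the RGD codons, which are in capitals, is in a coding exon at chr5:104587317-104587385 on the plus strand of GRCm39 (GENCODE vM39):
Spp1, coding: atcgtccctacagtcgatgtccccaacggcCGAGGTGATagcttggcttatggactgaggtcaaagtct
The canonical reading frame of Spp1 codes for 294 residues, with its RGD beginning at residue 144. No RGD was found in the frames of Efna3 (230 residues), Tpbg (426) or Art1 (325). Aspartate and glutamate made up 23.1% of the residues of osteopontin and between 6.52% and 9.62% of those of the other members. Leucine made up 16.2% of TPBG, the leucine-rich repeat protein, and TPBG also had the most N-glycosylation sequons (asparagine, any residue but proline, then serine or threonine), with 9 against 1 in osteopontin, 2 in ART1 and 4 in ephrin-A3.

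The sequence before the start site is shown for the 3 cell-surface genes, to let their promoters be compared. Windows of 250 bases before the first listed start site came from RefSeq promoter sequences (build GRCm38.p6) and were placed on GRCm39 by an exact match of their letters. Only the part outside annotated exons of the gene is printed, and for Spp1 no part lay outside them. Capitals mark matches, on either strand, to a GC box (GGGCGG) or an AP-1 motif (TGANTCA). The printed parts lie at chr3:89230273-89230496 on the minus strand for Efna3, at chr9:85724183-85724432 on the plus strand for Tpbg and at chr7:101750700-101750880 on the plus strand for Art1:
Efna3: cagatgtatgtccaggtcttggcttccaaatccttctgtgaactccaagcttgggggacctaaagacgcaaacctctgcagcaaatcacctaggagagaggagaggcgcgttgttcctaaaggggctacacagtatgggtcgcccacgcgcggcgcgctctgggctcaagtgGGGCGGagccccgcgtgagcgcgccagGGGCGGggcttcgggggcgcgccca
Tpbg: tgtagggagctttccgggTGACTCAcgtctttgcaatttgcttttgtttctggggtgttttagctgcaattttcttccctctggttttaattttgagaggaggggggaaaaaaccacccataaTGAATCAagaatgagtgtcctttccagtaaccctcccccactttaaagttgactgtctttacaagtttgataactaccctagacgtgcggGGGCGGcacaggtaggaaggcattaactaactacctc
Art1: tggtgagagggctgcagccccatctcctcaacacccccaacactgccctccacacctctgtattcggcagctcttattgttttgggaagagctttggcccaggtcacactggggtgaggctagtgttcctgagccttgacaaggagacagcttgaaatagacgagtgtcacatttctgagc
The whole windows differed in composition. Efna3 had 63.6% G and C and 19 CpG dinucleotides, against a median of 52.4% and 6 over 32841 promoter windows of the same length. Spp1 (43.6%, 3 CpG), Tpbg (45.2%, 5 CpG) and Art1 (54.4%, 3 CpG) held fewer CpG than that median. Efna3 had 3 GC boxes, at 78, 51 and 23 bases before its start, and Tpbg had 1, at 37 bases, with AP-1 motifs at 232 and 127 bases. Art1 had a TATA box (TATAAA) at 30 bases. Spp1 had a TATA box at 211 bases, a RUNX motif (ACCACA) at 128 bases and a CCAAT box (CCAAT) at 46 bases. A CEBP motif (TTGCNNAA) was searched as well and matched in no window. No match overlapped one of another motif. Of all windows, 32.7% held the GC box, 6.75% the AP-1 motif, 12.4% the TATA box, 14.0% the RUNX motif, 33.9% the CCAAT box and 9.57% the CEBP motif. No motif of the 6 was found in all 4 members, and whether the members share regulation was not tested. Spp1, Efna3 and Tpbg each have a further start site in RefSeq, whose window was not searched.

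The members lie on 4 chromosomes. Spp1 is at chr5:104582165-104589235 on the plus strand, and its canonical transcript has 7 exons and 2229 bases. Efna3 is at chr3:89221203-89230272 on the minus strand (5 exons, 2363 bases), Tpbg at chr9:85724433-85729108 on the plus strand (2 exons, 3651 bases) and Art1 at chr7:101750881-101771853 on the plus strand (5 exons, 1506 bases). The nearest other gene of the table was Zfp33b for Spp1, at 0.130 Mb. For Efna3, Tpbg and Art1 it lay at 6.92, 1.82 and 2.10 Mb. Every window of 50 bases within the exons of the canonical transcripts was found once in the genome, so that copies elsewhere do not share such stretches with the members.

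Exons of other genes overlap the members on the opposite strand. Of the canonical transcript of Efna3, 32.0% lies in exons of the lncRNA Gm15998. For Tpbg, 25.2% lies in exons of the lncRNA 9330154J02Rik, and for Art1, 10.3% lies in exons of the lncRNA Gm72746. Over all 41 transcripts of Art1, exons of Chrna10, a nicotinic acetylcholine receptor subunit, cover 17.5% of the exonic bases on the opposite strand. The labels name a stranded kit, the methods name a kit with no statement on strand, and the setting used in counting is not given in the sources used here. Without strand, reads of these genes and of their antisense partners cannot be told apart within the shared bases. Spp1 shared 3.41% of its canonical transcript with a gene on its own strand (Gm42793) and none with one on the opposite strand. None of these overlapping genes is in the table.

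Spp1, the secreted ligand of the set, was at 0.22, 0.48 and 0.23 TPM in CON 1 to CON 3 and at 1.28, 0.87 and 1.24 TPM in T 1 to T 3. The lowest T library stood 1.81-fold above the highest CON library. Mean levels were 0.31 ± 0.15 TPM in CON and 1.13 ± 0.23 TPM in T (SD, n = 3). Differences were taken on log2(TPM + 1), where a given fold counts for less at low levels. The limma difference of T minus CON was 0.70 ± 0.15 (standard error), with a 95% interval from 0.32 to 1.09. Its limma adjusted p was 0.0506 over the 196 genes. All of these were listed for a difference between the same libraries. The p-values and intervals of the members, here and below, are therefore no independent test. Exact permutation of the libraries (20 assignments, two-sided) gave p = 0.10, the smallest value that 3 libraries against 3 allow. Spp1 had the lowest level of the 4 members in 5 of the 6 libraries, T 2 being the exception.

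Efna3, the GPI-anchored ligand, had the highest level of the members in every library. Its levels were 1.95, 2.84 and 1.44 TPM in CON 1 to CON 3 and 4.34, 4.35 and 6.82 TPM in T 1 to T 3. T 1 and T 2 lay close together with T 3 above them, and the lowest T library stood 1.53-fold above the highest CON library. Group means were 2.08 ± 0.71 and 5.17 ± 1.43 TPM (SD, n = 3). The limma difference was 1.00 ± 0.25 with an interval from 0.38 to 1.63 and an adjusted p of 0.0637, and the exact permutation p was 0.10. Efna3 made up between 42.1% and 57.4% of the summed level of the 4 members, which ran from 2.51 to 5.39 TPM in CON and from 7.61 to 12.8 TPM in T.

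Art1, the GPI-anchored enzyme, had the smallest spread of the members within CON. It was measured at 0.71, 0.78 and 0.57 TPM in CON 1 to CON 3 and at 2.56, 1.80 and 2.69 TPM in T 1 to T 3, so that the lowest T library stood 2.31-fold above the highest CON library, the widest gap among the members. The coefficient of variation was 15.6% in CON, against a median of 54.8% over the genes of the table, and 20.5% in T, against 61.1%. Group means were 0.69 ± 0.11 and 2.35 ± 0.48 TPM (SD, n = 3). The limma difference was 0.98 ± 0.16 with an interval from 0.58 to 1.38 and an adjusted p of 0.0373, and the exact permutation p was 0.10. Art1 was the only member with an adjusted p under 0.05, and its difference lay just below the fold threshold of 1 on the log2 scale.

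Tpbg, the membrane-spanning glycoprotein, was at 0.61, 1.29 and 0.27 TPM in CON 1 to CON 3 and at 2.13, 0.59 and 2.03 TPM in T 1 to T 3. T 2 lay below CON 1 and CON 2, and 7 of the 9 pairs of a T and a CON library had the higher level in T. The spread within groups was the widest of the members, with a highest level 4.78-fold above the lowest in CON and 3.61-fold in T. Group means were 0.72 ± 0.52 and 1.58 ± 0.86 TPM (SD, n = 3). The difference did not pass the test (limma 0.56 ± 0.36, interval from −0.35 to 1.47, adjusted p = 0.198), and the exact permutation p was 0.30.

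**Figure D1:**
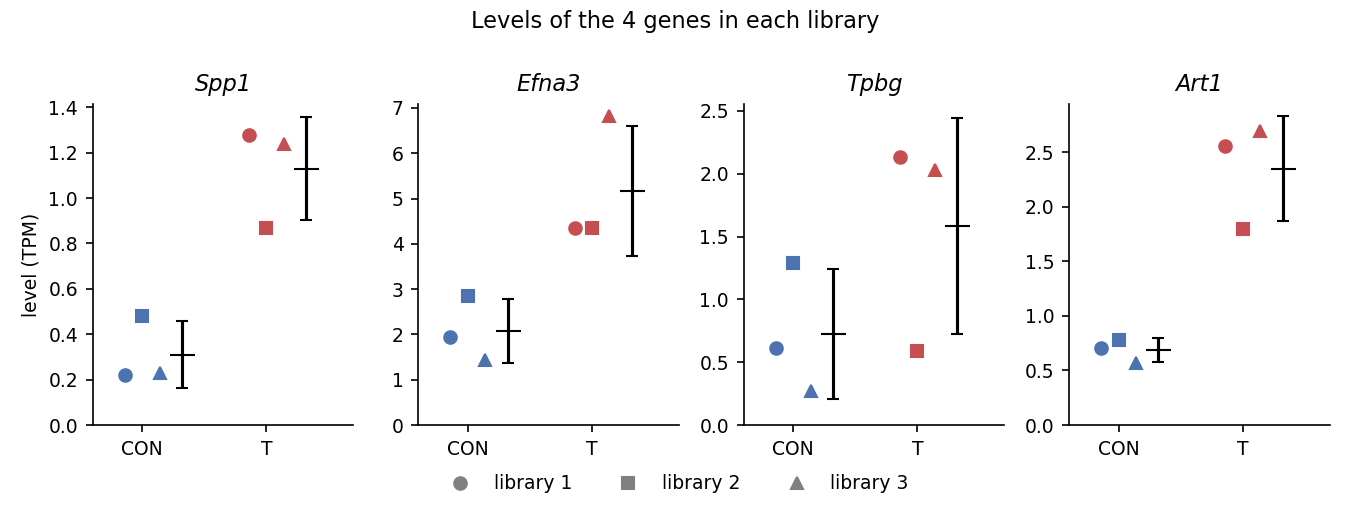
Level in TPM (vertical axes, from 0, one scale per gene) of Spp1, Efna3, Tpbg and Art1 in each CON and T library, with the marker shape giving the library number and black bars the mean ± SD of 3 libraries. The T libraries lie above all CON libraries for Spp1, Efna3 and Art1, while T 2 lies within the CON range for Tpbg, and CON 2 is the highest CON library for all 4 genes.

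Calls across the table needed an adjusted p under 0.05 and a limma difference of at least 1 on the log2 scale. By this rule 3 genes were called higher in T, which is 1.53% of the 196, and 5 lower, while 92 had an unadjusted p under 0.05. None of the 4 members was called: Spp1 and Tpbg missed both thresholds, Efna3 missed that of the adjusted p and Art1 that of the fold, with Spp1, Efna3 and Art1 at an unadjusted p of 0.00495, 0.00857 and 0.00118 in limma and Tpbg at 0.176. Without overlap and with T higher stood 3 of the 4 members, against 20.4% of all genes (40 of 196). Only the 67 genes with a higher mean in T could stand so, and 40 of these 67 did. Since all genes were listed for their difference between these libraries, the counts describe the members among listed genes and are no independent test. Among the 67 genes with a higher mean in T, Art1 ranked 2 by limma p, Spp1 7, Efna3 10 and Tpbg 58. By the ratio of mean TPM, in contrast, they ranked 40 (Spp1), 44 (Art1), 54 (Efna3) and 63 (Tpbg).

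**Figure D2:**
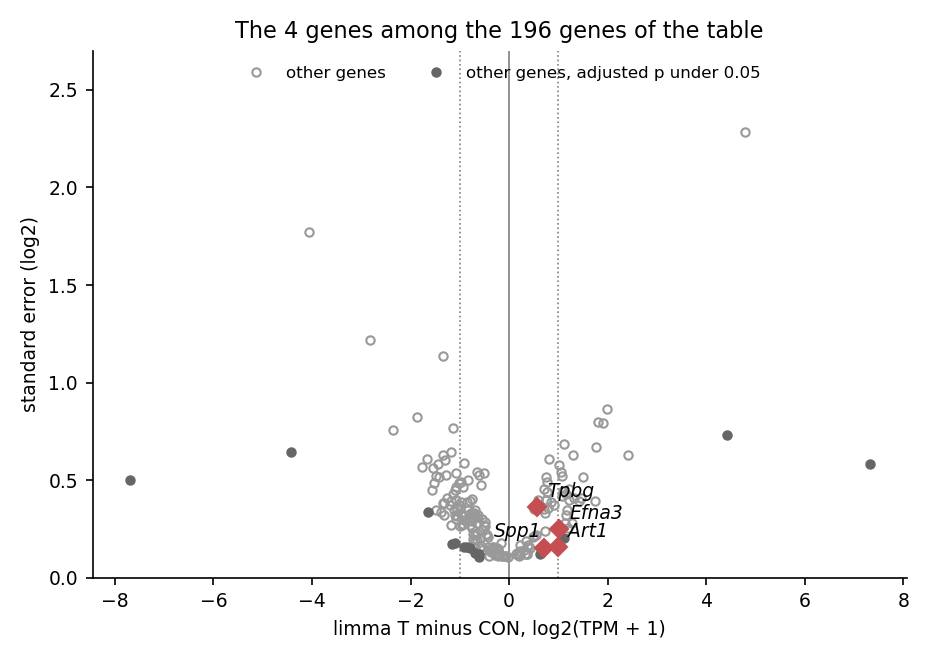
Limma difference of T minus CON on the log2(TPM + 1) scale (horizontal axis) against its standard error (vertical axis) for the 196 genes, with the 4 members as red diamonds, other genes as circles (filled where the adjusted p is under 0.05) and dotted lines at the fold threshold of 1 in each direction. Art1 (0.98) and Spp1 (0.70) combine a difference near or below the threshold with standard errors of 0.16 and 0.15, and Tpbg lies at 0.56 with a standard error of 0.36.

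The size of the difference depended on how the libraries were scaled against each other. Median-ratio scaling over the 104 genes with no value of 0 moved the median difference over all genes from −0.54 to −0.23, a shift of 0.31 on the log2 scale, and changed the calls from 3 higher and 5 lower in T to 17 higher and 2 lower. After that scaling the differences were 0.96 for Spp1 (adjusted p = 0.0363), 1.55 for Efna3 (0.0390), 0.91 for Tpbg (0.171) and 1.37 for Art1 (0.0211) in the limma fit, so that Efna3 and Art1 were called. The same 3 members stood without overlap, against 25% of all genes (49 of 196) after scaling. With the table holding only listed genes, neither scaling could be checked against genes that did not differ. The median-ratio factors were themselves taken from listed genes, and of all 196 genes, 129 had a lower mean in T and 67 a higher one. Levels were divided by factors of 1.31 to 1.49 in CON and 0.77 to 0.90 in T, which raised T relative to CON. Scaled values, here and below, therefore carry the selection of the genes. Calls and overlaps taken from them are no independent check of those as deposited. With a pseudocount of 0.1 in place of 1, the differences of Spp1 and Art1 were 1.62 and 1.63 and their adjusted p 0.0745 and 0.0577. The limma difference of each member was above 0 under every setting run.

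**Figure D3:**
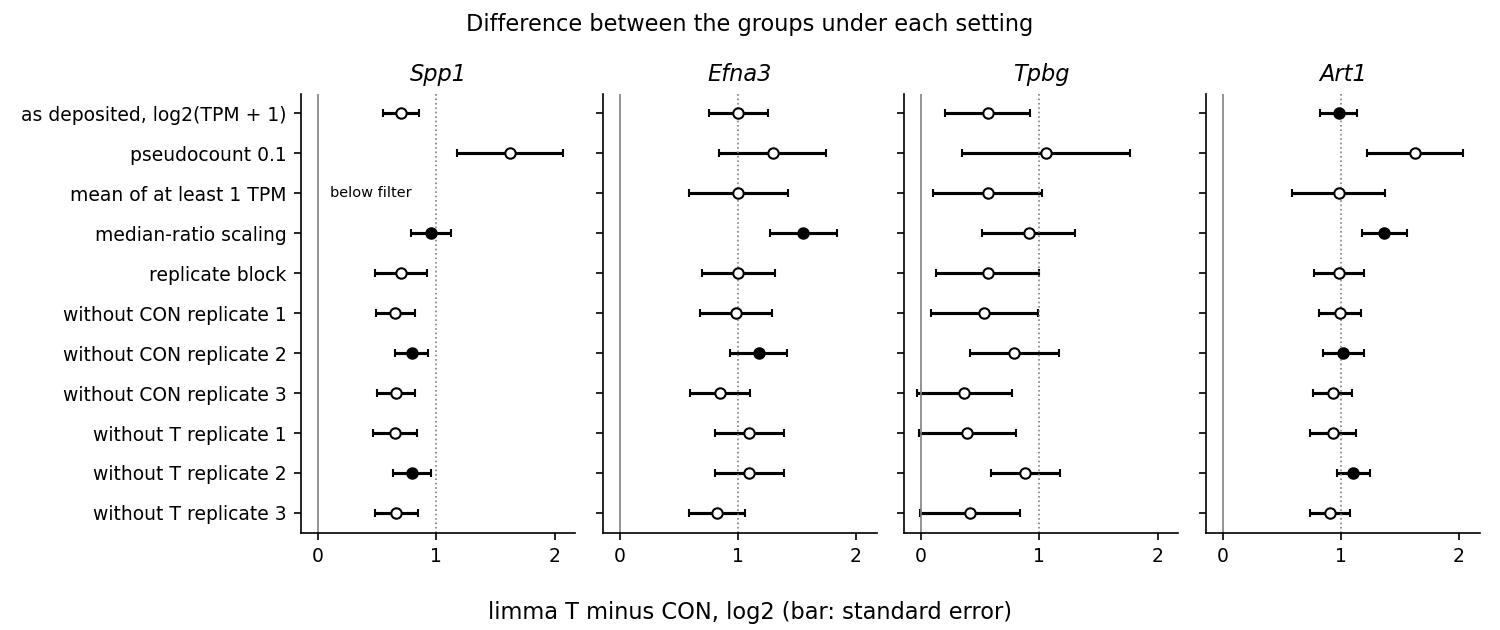
Limma difference of T minus CON (horizontal axis, log2, bars for the standard error, dotted line at the threshold of 1) for each member under each setting (vertical axis), with filled points where the adjusted p is under 0.05. Every point lies above 0, Tpbg has no filled point, and Spp1 has no value under the filter because its mean was below 1 TPM.

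Single libraries decided some of these calls. CON 2 was the highest CON library for all 4 members, as deposited and after scaling, and T 2 was the lowest T library for Spp1, Tpbg and Art1. Without CON 2, Efna3 (1.18, adjusted p = 0.0409) and Art1 (1.02, adjusted p = 0.0331) were called in the limma fit. Without T 2, Art1 was called (1.11, adjusted p = 0.0185), and the difference of Tpbg was 0.88 (adjusted p = 0.0947). Without CON 1, CON 3, T 1 or T 3, the adjusted p of Art1 in the limma fit was 0.0614, 0.0534, 0.0778 or 0.117, so that the only member under 0.05 stood above it in 4 of the 6 fits. Spp1 moved between 0.65 and 0.79 when each library was left out in turn and was not called in any of these fits.

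The ratio of a pair of members within a library does not depend on how that library was scaled. Among the 6 pairs, the ratio of Spp1 to Efna3 was the only one whose groups did not overlap, at 0.113, 0.169 and 0.160 in CON 1 to CON 3 and at 0.295, 0.200 and 0.182 in T 1 to T 3. It was higher in T by 0.61 on the log2 scale (exact permutation p = 0.10, and 0.60 after Benjamini-Hochberg adjustment over the 6 pairs). The ratio of Spp1 to Art1 lay between 0.461 and 0.500 in the T libraries and between 0.310 and 0.615 in the CON libraries, so that Art1 stood above Spp1 in all 6 libraries. Its difference was 0.18 (exact permutation p = 0.70, adjusted p = 0.84). The ratio of Efna3 to Art1 was lower in T in 8 of 9 pairs of libraries, by −0.43 on the log2 scale (exact permutation p = 0.20, adjusted p = 0.60). Ratios with Tpbg spread most, with Efna3 to Tpbg running from 2.20 to 5.33 in CON and from 2.04 to 7.37 in T. Their differences were 0.75 for Spp1 to Tpbg, 0.14 for Efna3 to Tpbg and −0.57 for Tpbg to Art1, with exact permutation p of 0.30, 0.90 and 0.40. No pair differed beyond the spread between libraries after adjustment, and with 3 libraries per group none could.

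**Figure D4:**
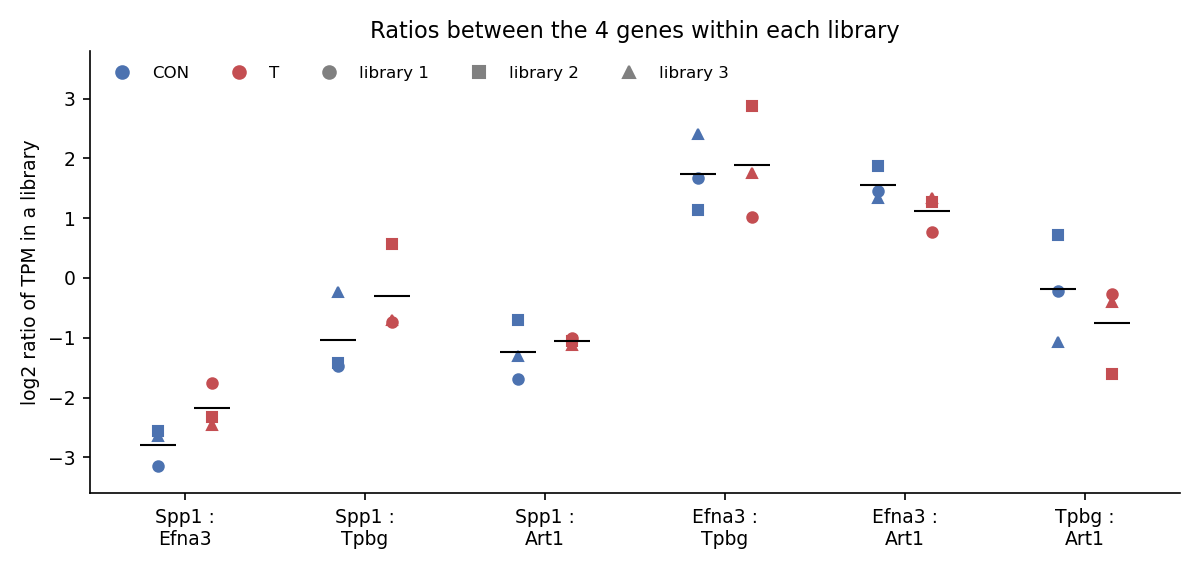
Log2 ratio of the TPM of the members of each pair within a library (vertical axis) for the 6 pairs (horizontal axis), CON in blue and T in red, with the marker shape giving the library number and black lines the group mean. The groups are apart for Spp1 to Efna3 alone, the T libraries lie close together for Spp1 to Art1, and the pairs with Tpbg spread most.

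In the order of levels, Efna3 stood first in both groups, with no library of it below any library of another member in the same group. In CON, Tpbg and Art1 did not differ beyond that spread, and the ranges of Tpbg and Spp1 overlapped as well. In T, Art1 and Tpbg overlapped and so did Tpbg and Spp1. All libraries of Art1 lay above all those of Spp1 in both groups, in CON with 0.57 TPM as the lowest of Art1 and 0.48 TPM as the highest of Spp1. Among the 196 genes of the table, Efna3 ranked between 41 and 83 by TPM in the CON libraries and between 19 and 28 in the T libraries. Spp1 ranked between 124 and 156 in CON and between 63 and 81 in T. These ranks are among listed genes, of which 129 had a lower mean in T and 67 a higher one. A rank within the table therefore also moves with the selection of its genes.

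Likeness to other genes was measured as the root mean square difference, over the 6 libraries, of log2(TPM + 1) centred on its mean. The gene nearest to Spp1 was Art1, at 0.16, and Spp1 was second nearest to Art1 after Trim6, which was also at 0.16. Trim6, a tripartite-motif gene, was nearest to Efna3 too, at 0.19. It was measured at 0.37, 0.79 and 0.61 TPM in CON 1 to CON 3 and at 2.30, 1.84 and 3.21 TPM in T 1 to T 3, and lies on the chromosome of Art1. For Efna3, the next were Art1 (0.20) and Spp1 (0.25), so that, as deposited, Spp1, Efna3 and Art1 stood among each other's 3 nearest genes except that Efna3 was not among those of Spp1. After Art1, Spp1 was nearest to ENSMUSG00000121862 and Gm9603 (0.16 and 0.17). Tpbg had no other member among its 3 nearest genes as deposited and was nearest to Ccrl2 (0.25), a chemokine-binding receptor, then to Gm12928 and Gm20814 (both 0.27). The median over the table was 0.74 for Spp1, 0.90 for Efna3, 0.79 for Tpbg and 0.85 for Art1. Since the measure runs over both groups, it includes the difference between them for which the genes were listed. The medians also include the 129 genes with a lower mean in T. A small distance beside such a median is therefore no independent sign of likeness. After median-ratio scaling, Ccrl2 was nearest to Spp1 (0.17), Gm12928 to Tpbg (0.23) and Trim6 to Efna3 (0.17) and Art1 (0.14). Which members stood among the 3 nearest depended on the scaling. After it, Art1 was no longer among the 3 nearest to Spp1, nor Spp1 among those of Efna3, nor Efna3 among those of Art1. Art1 remained among the 3 nearest to Efna3 (0.23, against 0.20 as deposited) and Spp1 among those of Art1 (0.22, against 0.16). Spp1 came to be the third nearest to Tpbg (0.29).

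Most partners of the members are not in the table and were not analysed here. Spp1 was the only gene present of 21 in a list of osteopontin relatives, receptors and proteases, and of 36 extracellular matrix genes. Efna3 was the only one of 22 ephrins and Eph receptors, Art1 of 6 arginine ADP-ribosyltransferases and Tpbg of 30 genes of Tpbg and the Wnt receptors. None of 23 genes of the blood-testis barrier was present. Of 64 genes of GPI-anchored surface proteins 3 were present (Efna3, Art1 and Lypd1). All 3 stood higher in T without overlap, against 20.4% of all genes, or 40 of the 67 with a higher mean in T. Efna3 and Art1 are members already counted above, so that this count adds only Lypd1. The third, Lypd1, a modulator of nicotinic acetylcholine receptors, was listed at 0.28, 0 and 0 TPM in CON 1 to CON 3 and at 0.36, 0.36 and 0.55 TPM in T 1 to T 3. None of the 3 was called by limma.

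The study grouped the members with other genes, chosen on these same samples, so that the groupings are no independent evidence. Spp1 and Efna3 were set in the PI3K-Akt pathway with Pik3ap1, an adaptor that links receptors to PI3K. Pik3ap1 was at 1.10, 1.31 and 1.66 TPM in CON 1 to CON 3 and at 5.43, 1.47 and 1.79 TPM in T 1 to T 3, with T 1 far above the other T libraries and T 2 below CON 3 (limma 0.59 ± 0.40, adjusted p = 0.210). It overlapped as deposited and not after scaling. Spp1 was also set with Sv2c, a synaptic vesicle glycoprotein, under interaction of matrix and receptors. Sv2c pointed the other way, at 2.42, 1.79 and 1.52 TPM in CON 1 to CON 3 and at 1.72, 0.93 and 0.82 TPM in T 1 to T 3, with overlap (limma −0.44 ± 0.22, adjusted p = 0.133), and after scaling its difference was 0.02.

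Plek, a leukocyte protein kinase C substrate that shares the TYROBP network with Spp1, was at 0.79, 0.45 and 0.33 TPM in CON 1 to CON 3 and at 0.15, 0.30 and 0.18 TPM in T 1 to T 3. It was lower in T without overlap as deposited and overlapped after scaling (limma −0.32 ± 0.16, adjusted p = 0.133). Tpbg was set in the inflammatory response with Ccrl2 and Nmur1, a neuromedin U receptor. Ccrl2 was at 0.56, 0.84 and 0.44 TPM in CON 1 to CON 3 and at 1.27, 0.89 and 2.04 TPM in T 1 to T 3, and Nmur1 at 0.41, 0.59 and 0.22 and at 4.59, 0.78 and 5.30 TPM. Neither Ccrl2 nor Nmur1 overlapped between the groups, whereas Tpbg did, and for Tpbg and Ccrl2 alike T 2 was the lowest T library, as it was for Nmur1. Their limma adjusted p were 0.105 for Ccrl2 and 0.0863 for Nmur1.

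Adipocyte markers were lower in T as deposited, although none passed the test. Of 12 adipocyte markers 4 are in the table (Fabp4, Cfd, Car3 and Cyp2e1), and their summed level was 17.1, 5.39 and 8.47 TPM in CON 1 to CON 3 and 0.44, 4.22 and 2.41 TPM in T 1 to T 3. All 4 were lower in T without overlap as deposited, against 42.3% of all genes (83 of 196), or 83 of the 129 with a lower mean in T. Car3 was listed at 0 in T 1. After median-ratio scaling, whose factors came from listed genes and raised T relative to CON, all 4 overlapped. By then 15.8% of all genes (31 of 196) were lower without overlap. Their limma adjusted p were 0.0708 for Fabp4, 0.0918 for Cfd, 0.0841 for Car3 and 0.146 for Cyp2e1. Within the groups, Fabp4, Cfd and Car3 had one order of libraries, highest in CON 1 and lowest in CON 2, and highest in T 2 and lowest in T 1. Cyp2e1 had another order, highest in CON 1 and lowest in CON 3, and highest in T 3 and lowest in T 1. Against Fabp4, Cfd and Car3, the order of Spp1 was the opposite in 6 of 6 pairs of libraries of one group, that of Tpbg in 5, of Art1 in 4 and of Efna3 in 3, and after scaling these counts were 5, 5, 4 and 4. Against Cyp2e1 they were 4, 3, 2 and 1 as deposited and 3, 3, 2 and 2 after scaling, so that Efna3 was ordered like Cyp2e1 in 5 of 6 pairs as deposited. The pairs come from 3 libraries per group and are not independent, and Fabp4, Cfd and Car3 stand for 1 order. How often other genes of the table reach such counts was not computed. The part of adipocyte RNA in the members' differences was not tested. Of 12 leukocyte markers only Plek is in the table, and none of 12 macrophage, 6 endothelial, 9 skeletal muscle or 8 epididymis markers is, so that the defining markers of macrophages, a known source of osteopontin, and of muscle, a known site of ART1, were not analysed here.

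**Figure D5:**
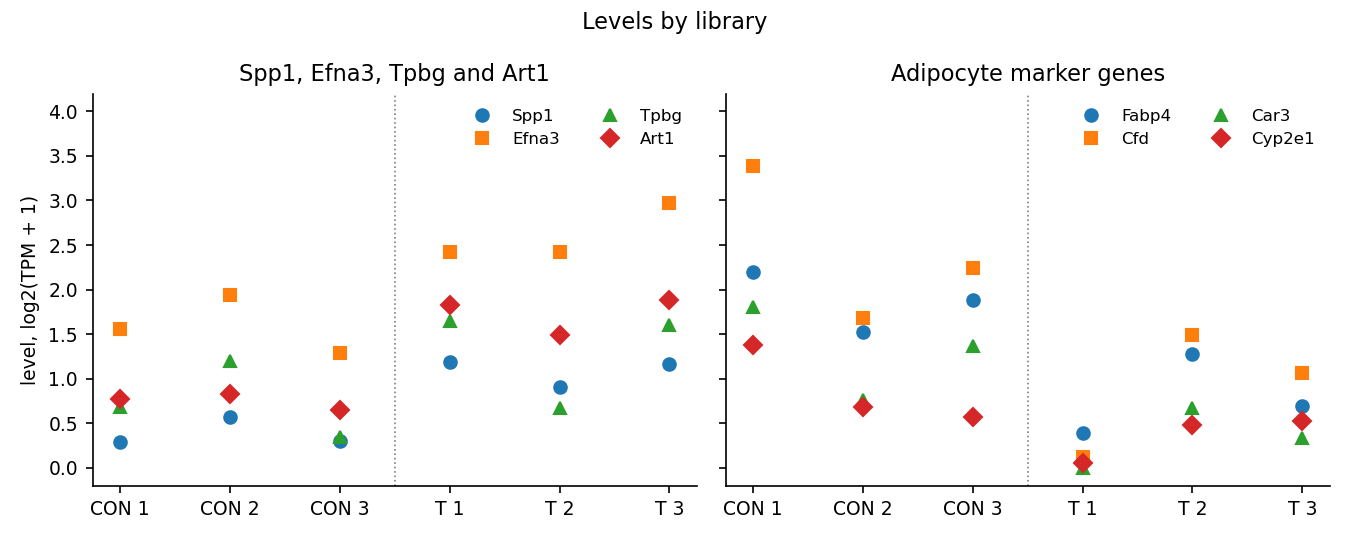
Level as log2(TPM + 1) (vertical axis) of the 4 members (left) and of the 4 adipocyte markers (right) in each library (horizontal axis, dotted line between the groups), 1 marker shape per gene. Spp1, Efna3 and Art1 lie higher in every T library than in any CON library, Tpbg does not in T 2, and the adipocyte markers lie lower in T, with Fabp4, Cfd and Car3 highest in T 2 among the T libraries and Cyp2e1 highest in T 3.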

How the data were processed

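Testis RNA of 6 mice was sequenced as poly(A) libraries with paired reads of 150 bases. The deposited table gives TPM values that the authors made from reads aligned to GRCm39 with HISAT2. The study's figures name TPM and its methods FPKM, and the labels list fastp and RSEM where the methods name Trimmomatic and HTSeq. The table's columns of fold change and p-values hold the authors' own comparison. They are described above for how the genes were listed and entered no test. Columns of values matched to no sample numbered 0. The groups CON and T follow the library names and the mean columns (relative tolerance 1e-06).

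The groups were compared on log2(TPM + 1) with limma 3.58.1 (R 4.3.3), fitted without a filter over the whole table with Benjamini-Hochberg adjustment, and a call needed an adjusted p under 0.05 and a difference of 1 or more in either direction. The authors used DESeq2 on counts, and the table holds no counts. This fit was first tested on simulated data, in which 40 of 196 genes were changed by 2 on the log2 scale. Of the changed genes 83% were called, with a mean of 1.05 false calls over 20 simulations. The differences of the members were smaller than that change, so this result does not carry over to them. Single values were compared by exact two-sided permutation over the 20 assignments of libraries. The labels number the libraries as replicates and name no animals, so p-values measure the spread between these 6. Alternatives were a pseudocount of 0.1, a mean of at least 1 TPM, median-ratio scaling, a replicate block and leaving out each library.

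Genes named are the members, genes of the fixed pathway and study lists, markers of a cell type with at least 2 in the table, and the 3 genes nearest to each member; Plek is named as a gene of a study list. The members and lists were chosen with earlier results of these data known. Positions came from GENCODE vM39, in which 195 of 196 identifiers were found, and promoters from RefSeq. Python 3.11.15, numpy 2.4.6, pandas 2.3.3, numba 0.67.0 and matplotlib 3.10.9 were used.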

Additional observations from a re-analysis of the deposited data

How the results depend on the processing

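The number of calls across the table was 8 as deposited (3 higher and 5 lower in T), 15 with a pseudocount of 0.1 (3 and 12), 5 of the 103 genes with a mean of at least 1 TPM (3 and 2), 19 after median-ratio scaling (17 and 2) and 3 with the replicate number as a block (2 and 1). It ran from 3 to 35 when each library was left out in turn, with 3 without CON 1, 35 without CON 2, 25 without T 2 and 3 without T 3. The difference of Efna3 was 1.55 and that of Art1 1.37 after median-ratio scaling, both called, and they ran from 0.82 to 1.18 and from 0.91 to 1.11 over the fits that left out a library. Spp1 and Tpbg were called under no setting run, and the adjusted p ran from 0.0353 to 0.126 for Spp1, 0.0390 to 0.138 for Efna3, 0.0947 to 0.429 for Tpbg and 0.0185 to 0.117 for Art1 over the alternatives. Spp1 has no value under the filter on low values.

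The ratio of Spp1 to Art1 changed sign with a pseudocount of 0.1 (−0.0039) and ran from −0.051 to 0.44 when a library was left out, and that of Efna3 to Tpbg ran from −0.36 to 0.57. The cause was not tested. The other ratios kept their direction under every alternative. Libraries of one number come from mice of different groups. The correlation of their deviations from the group means over 196 genes was 0.04, −0.03 and 0.10, with 3 of 6 libraries correlating best with their own number, so that the block pairs nothing the labels describe. With the block the adjusted p of the members were 0.118, 0.118, 0.308 and 0.116 in the limma fit, in the order Spp1, Efna3, Tpbg and Art1. The ratios could not pass 0.05 in either fit, since the smallest p is 0.25 with the block and 0.10 without it. Since TPM keeps no read counts, the precision of levels under 1 TPM, such as those of Spp1 in CON, cannot be given.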
